A study of Homo sapiens with 12 samples.

Results

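The transcripts of the mitochondrial genome were followed in Huh7 cells, a human hepatocellular carcinoma line, treated with Molidustat, an inhibitor of the prolyl hydroxylases that mark HIF-alpha subunits for degradation. The members were the 37 genes whose symbol starts with MT-, of 60666 genes listed in each count table: 13 messenger RNAs, 2 ribosomal RNAs and 22 transfer RNAs. The rule used the symbol alone, and this group of genes was picked with earlier results of these data known. Huh7 cells in culture received 25 µM Molidustat or the solvent DMSO alone, and were collected after 24 h or 48 h, with 3 biological replicates in each of the 4 groups and thus 12 libraries. The groups share the line, the medium and the solvent and differ by treatment and time, and a single line limits what they stand for. Libraries were made from polyadenylated RNA by a method that sequences only the 3′ ends of transcripts.

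Human mitochondrial DNA is a small circle that is transcribed from both strands into long precursors, from which transfer RNAs are cut out so that the messenger and ribosomal RNAs between them are released. The messengers encode core subunits of respiratory complexes I, III and IV and of the ATP synthase, or complex V, and the ribosomal RNAs build the ribosome that translates them inside the organelle. Most of these messengers carry a short poly(A) tail, while MT-ND6 is known to carry little or none. Everything else needed to copy, transcribe, cut, tail and translate this genome is encoded in the nucleus.

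The 3′ ends of the messengers are shown first, since the tail on which these libraries depend is added there. On GRCh38 the mitochondrial sequence had 16569 bases, and 12 of the 13 messengers were transcribed from the heavy strand and 1, MT-ND6, from the light strand. In 6 messengers the annotated gene ended before its stop codon was complete, with T as the last base in 5 and TA in 1, and the missing letters are known to be supplied by the tail. The other 7 annotated genes held whole codons only, and their last 3 bases were taken as the stop codon. These were AGA for MT-CO1, AGG for MT-ND6, and TAG or TAA for the others. For MT-ATP6 the last base is also the first of MT-CO3, and which of these messengers carries it was not examined. The last 30 bases of 6 messengers are given 5′ to 3′ on the strand of the transcript, with the encoded part of the stop codon, taken in this way, in capitals. The first 4 have incomplete stops, and the last 2 are the ATP synthase messenger with the highest level and the light-strand messenger.
MT-ND1, chrM:4233-4262, plus strand: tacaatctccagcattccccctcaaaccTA
MT-ND2, chrM:5482-5511, plus strand: ctatctccccttttatactaataatcttaT
MT-ND4, chrM:12108-12137, plus strand: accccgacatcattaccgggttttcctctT
MT-CYB, chrM:15858-15887, plus strand: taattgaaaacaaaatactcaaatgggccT
MT-ATP6, chrM:9178-9207, plus strand: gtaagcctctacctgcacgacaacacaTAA
MT-ND6, chrM:14149-14178, minus strand: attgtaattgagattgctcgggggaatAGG

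Overlapping frames bear on what a count of these genes means. MT-ATP8 and MT-ATP6, both subunits of the ATP synthase, share 46 bases at chrM:8527-8572, which is 22.2% of MT-ATP8. MT-ND4L and MT-ND4, both subunits of complex I, share the 7 bases ATGCTAA at chrM:10760-10766, in which the start codon ATG of MT-ND4 precedes the stop codon TAA of MT-ND4L. Each pair is carried by 1 messenger in the cell, so that counts of MT-ATP8 and MT-ND4L record where on a shared messenger reads fell. How the counting treated strand and overlap is not given in the sources used here, and reads of RNA antisense to MT-ND6 therefore cannot be told apart from its messenger.

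The libraries held between 1499273 counts on genes (DMSO 48 h replicate 2) and 9179389 (DMSO 48 h replicate 3). That smallest library stood apart in other ways. Of its listed reads, 50.4% lay on no annotated gene, against 17.1% to 25.6% in the other 11, and its TMM scaling factor was 0.629, against 1.01 to 1.08. Values without it are given beside many of the results. The identity of the cells was checked on 10 hepatocyte markers and 11 markers of other cells. All 10 hepatocyte markers passed the filter on low counts, with AFP the most abundant. Their summed level (in CPM, counts scaled by library size) did not overlap between treatments at either time. It was 12762, 13575 and 15750 CPM in DMSO and 19107, 19295 and 23233 CPM with Molidustat at 24 h, and 17190, 9055 and 16996 CPM against 26493, 24668 and 29440 CPM at 48 h. The 10 markers did not all move alike. At 48 h the log2 fold change was 1.52 for TF, -0.46 for APOB and -1.88 for HNF4A. Without DMSO 48 h replicate 2 these were 1.11, -0.67 and -0.05. The lowest sum was that of DMSO 48 h replicate 2, although HNF4A, a transcription factor of hepatocytes, was highest there, at 1232 CPM against at most 765. The part of these differences in the results was not tested. The 11 markers of fibroblasts, endothelium, leukocytes and red cells summed to 2.52 to 16.1 CPM, and 4 of them (VWF, CD3E, HBB and HBA1) were at 0 in every library.

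Mitochondrial transcripts took 1605761 counts in all, and their share of gene counts overlapped between treated and control cells at both times. At 24 h the share was 2.62%, 2.68% and 3.80% in DMSO and 2.40%, 1.46% and 3.61% with Molidustat, or 3.03% ± 0.664 against 2.49% ± 1.08 (mean ± SD, n = 3 each). At 48 h it was 2.54%, 0.969% and 3.73% in DMSO and 2.71%, 3.59% and 3.03% with Molidustat, or 2.41% ± 1.38 against 3.11% ± 0.441. The 48 h control mean was lowered by replicate 2, whose 0.969% was the lowest of the 12 libraries, and without it the control mean was 3.14% ± 0.837 (n = 2). The 24 h difference in means of -0.545 percentage points was -0.0284 without Molidustat replicate 2. The 95% Wilson intervals were at most 0.0479 percentage points wide and cover counting error only, so that the spread between replicates far exceeded it. No test was made of this sum. In such bulk libraries, fewer cells with much of an RNA and less of it in every cell cannot be told apart.

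**Figure D1:**
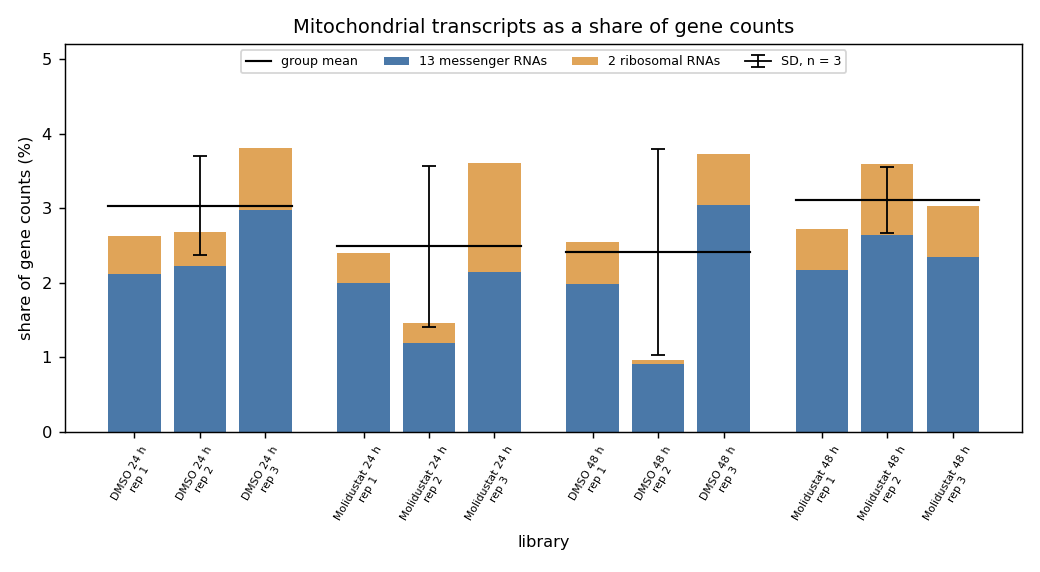
Bars give the share of gene counts (%) on the 13 mitochondrial messengers and, stacked on them, the 2 ribosomal RNAs in each of the 12 libraries. Lines and error bars give the mean and SD of the total for each group of 3, and the bar of DMSO 48 h replicate 2, at 0.969%, is the lowest.

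By class, with the counts of the 12 libraries pooled, the 7 complex I messengers held 35% of mitochondrial counts and the 2 ribosomal RNAs 22.5%. The 3 complex IV messengers held 18.5%, the 2 complex V messengers 16.6% and MT-CYB, the complex III messenger, 7.39%. This order did not hold in every library. In DMSO 24 h replicate 3, complex V held 29.0% and complex I 27.0%. The ribosomal part was 5.49% of mitochondrial counts in DMSO 48 h replicate 2 and 40.7% in Molidustat 24 h replicate 3, and 17% to 26.4% in the other 10 libraries. The complex V part ran from 9.42% in Molidustat 24 h replicate 3 to 35.2% in DMSO 48 h replicate 2.

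Transfer RNAs were all but unseen. The 22 genes together had 120 counts, 0.00747% of mitochondrial counts, with 1 to 30 in a library. None passed the filter on low counts, and 9 had no count in any library (MT-TF, MT-TM, MT-TN, MT-TK, MT-TG, MT-TR, MT-TH, MT-TS2 and MT-TL2). A count of 0 allows a level of up to 0.309 CPM in the deepest library and 3.18 CPM in the shallowest, among polyadenylated RNA only. Transfer RNA without a poly(A) tail would not enter these libraries, so these counts do not measure its abundance. MT-TP had 49 counts and MT-TT 28, and these genes, on opposite strands, are the last 2 before the control region. The highest count of any transfer RNA in 1 library was 11, for MT-TT. Of the 22 genes, 8 lie on the light strand, MT-TP among them.

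Within the messengers and ribosomal RNAs, levels are compared as CPM per kilobase of gene. Since 3′ ends were sequenced, this division is a convention and not a measure of molecules, and the highest and lowest genes depend on it. In mean CPM without the division, MT-RNR2 (5290) and MT-ND2 (4586) stood above MT-ATP6 (4405). MT-ND3 (30.5) then stood below MT-ND6 (42.6). Over the 12 libraries the mean was highest for MT-ATP6 (6469 ± 2937 CPM per kb, SD) and lowest for MT-ND6 (81.2 ± 48.6). Between them in falling order were MT-CO2 (4625), MT-ND2 (4402), MT-RNR2 (3393), MT-ND4 (2219), MT-CYB (1745), MT-CO3 (1527), MT-ATP8 (1109), MT-ND5 (762), MT-RNR1 (715), MT-CO1 (434), MT-ND1 (239), MT-ND4L (190.4) and MT-ND3 (88.1). Of the 14 neighbouring pairs in this order, 3 differed by more than the larger of their SDs: MT-RNR1 above MT-CO1, MT-CO1 above MT-ND1 and MT-ND4L above MT-ND3. Compared within libraries, these held in 11, 11 and 10 of 12. MT-ND4 above MT-CYB and MT-CO3 above MT-ATP8 held in 11 each, while MT-CO2 was above MT-ND2 in 6. Messengers that follow each other on the circle stood far apart in this measure, such as MT-CO1 (434) and MT-CO2 (4625), both of complex IV, or MT-ND4L (190.4) and MT-ND4 (2219), which share a messenger.

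**Figure D2:**
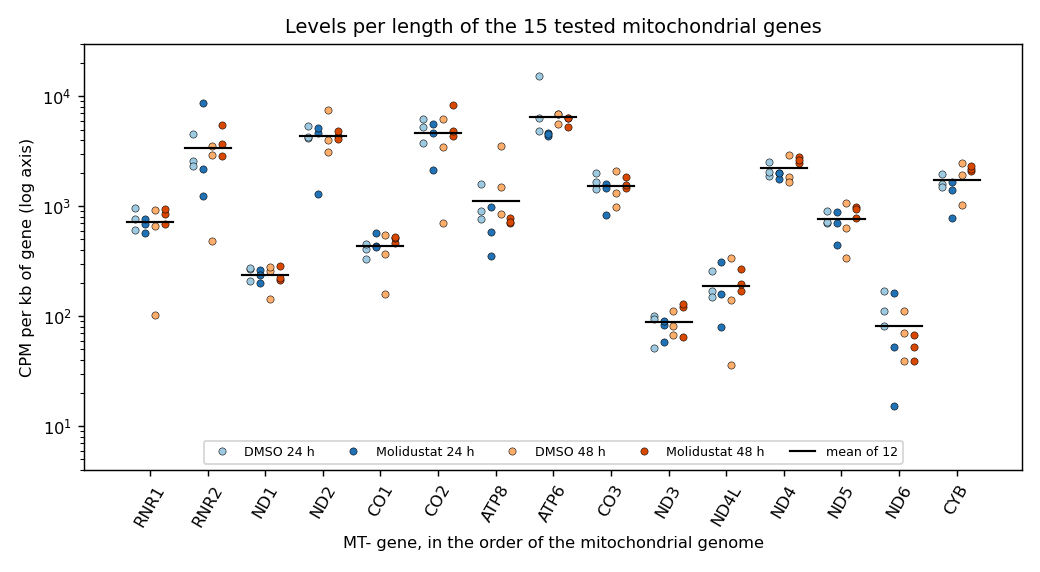
Points give CPM per kb of gene on a log axis in the 12 libraries, coloured by group, for the 15 genes that passed the filter, placed in the order of the mitochondrial genome; lines are means of the 12. MT-ATP6 has the highest mean (6469) and MT-ND6 the lowest (81.2), and MT-RNR1, MT-RNR2, MT-CO2 and MT-ND4L each have an isolated low point from DMSO 48 h replicate 2.

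Replicates of 1 group differed widely in these genes. The SD of log2 CPM within groups was 0.505 at the median of the 15 genes, from 0.250 for MT-ND4 to 1.1 for MT-RNR2. In 5554 nuclear genes of at least the same mean level as the lowest of the 15, the median was 0.462 and the quartiles were 0.348 and 0.629. Of the 15, 9 lay above that median. The nuclear genes were not matched in level to each of the 15. Without DMSO 48 h replicate 2 the medians were 0.460 for the mitochondrial and 0.345 for the nuclear genes, and 10 of the 15 lay above the nuclear median. That library had the lowest level of the 12 for 7 of the 15 genes and Molidustat 24 h replicate 2 for 5, while DMSO 48 h replicate 3 had the highest for 6.

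The first question was whether Molidustat changed any mitochondrial transcript, and in the test none passed. All 15 genes that passed the filter (13 messengers and 2 ribosomal RNAs of the 37) were tested with 14274 genes in all by edgeR's quasi-likelihood test, and a gene was called when its Benjamini-Hochberg adjusted p was under 0.05 and its change exceeded 1 on the log2 scale. At 24 h, 0 of 15 were called, beside 0.231% of all genes tested, and at 48 h 0 of 15, beside 0.231%. DESeq2 and limma-voom called 0 of 15 at both times as well. Of all genes, they called 141 and 64 at 24 h and 350 and 278 at 48 h. Without DMSO 48 h replicate 2, edgeR called 0 of 15 at 24 h, beside 0.761%, and 0 of 15 at 48 h, beside 0.347%. At an unadjusted p under 0.05, 1 of 15 was lower at 24 h (MT-ATP6; 1.52% of all genes tested) and 1 of 15 at 48 h (MT-ATP8; 8.81%), and none was higher at either time (3.73% and 4.53%). Without that library, 2 of 15 were lower at 24 h (MT-ATP6 and MT-ATP8; 2.85%) and 0 at 48 h (2.92%).

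At 24 h the estimates leaned low: 13 of 15 log2 fold changes were negative, with a median of -0.22 beside 0.02 over all genes tested. All 7 complex I messengers (-0.67 to -0.06), MT-CYB (-0.40) and both complex V messengers were negative, and MT-RNR2 (0.35) and MT-CO1 (0.26) were positive. Standard errors were 0.32 to 0.70, so that the 95% intervals of 14 of the 15 included 0. At 48 h the lean was the other way, with 11 of 15 positive and a median of 0.26 beside 0.01. Both leans moved with single libraries. At 24 h the median was -0.09 without DMSO replicate 3 and -0.13 without Molidustat replicate 2, with 11 and 9 of 15 negative, and -0.50 without Molidustat replicate 3, with 14 negative. At 48 h it was 0.04 without DMSO replicate 2, with 8 positive and 7 negative, 0.13 without Molidustat replicate 2, with 10 positive, and 0.56 without DMSO replicate 3, with 13 positive.

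**Figure D3:**
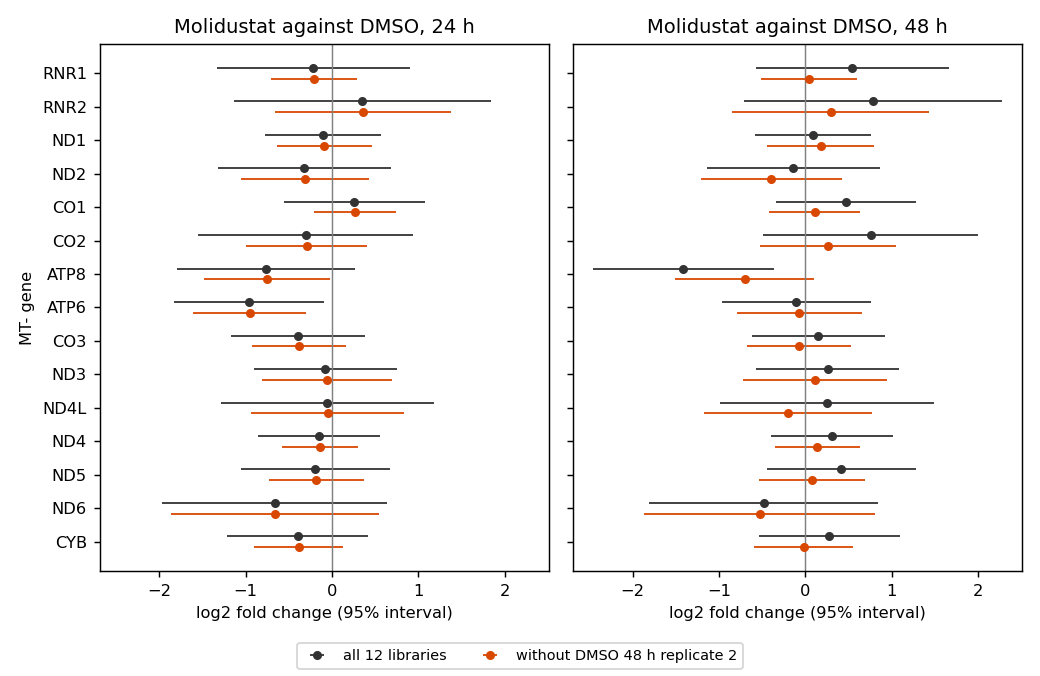
Points and bars give the log2 fold change of Molidustat against DMSO with its 95% interval for the 15 genes at 24 h (left) and 48 h (right), in genome order, from all 12 libraries and without DMSO 48 h replicate 2. With all libraries the intervals of MT-ATP6 at 24 h and MT-ATP8 at 48 h lie below 0, and without that library the 48 h median is 0.04 in place of 0.26.

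MT-ATP6 encodes the subunit of the ATP synthase through which protons pass. Its level at 24 h was 3307, 4332 and 10441 CPM in DMSO and 2979, 3178 and 3116 CPM with Molidustat. All treated libraries lay below all controls, by little for replicate 1 of DMSO and by a wide margin for replicate 3. Groups did not overlap for 1 of 15 genes at 24 h, beside 12.3% of all genes tested. The log2 fold change was -0.96 ± 0.41 (SE; edgeR adjusted p = 0.872, and 0.277 without DMSO 48 h replicate 2), and without DMSO 24 h replicate 3 it was -0.32. At 48 h the levels were 3835, 4698 and 4686 CPM in DMSO and 3599, 4347 and 4344 CPM with Molidustat, which overlapped, with a log2 fold change of -0.11 ± 0.41 (edgeR adjusted p = 0.949).

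MT-ATP8 encodes the small subunit whose frame runs into that of MT-ATP6. Its level at 48 h was 178, 729 and 313 CPM in DMSO and 161, 147 and 148 CPM with Molidustat. The treated libraries lay close together and below every control, and DMSO replicate 2 was the highest of the 12 libraries. Groups did not overlap for 1 of 15 genes at 48 h, beside 18% of all genes tested. The log2 fold change was -1.41 ± 0.49 (edgeR adjusted p = 0.232), and without DMSO replicate 2 it was -0.70 (adjusted p = 0.816). At 24 h MT-ATP8 was at 159, 188 and 331 CPM in DMSO and 121, 72.7 and 206 CPM with Molidustat, with overlap and a log2 fold change of -0.76 ± 0.48 (edgeR adjusted p = 0.999). The latter was -0.40 without DMSO replicate 3, -0.46 without Molidustat replicate 2 and -1.24 without Molidustat replicate 3.

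Set against its partner on the same messenger, MT-ATP8 had 0.155 counts for each count of MT-ATP6 in DMSO 48 h replicate 2 and 0.0229 to 0.0668 in the other 11 libraries. MT-ND4L had 0.00466 counts for each count of MT-ND4 in that library and 0.00964 to 0.0339 in the others. The former ratio was thus at its highest, and the latter at its lowest, in the same library. The part of its reads on no gene in these ratios was not tested.

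MT-RNR2 is the large and MT-RNR1 the small ribosomal RNA of the organelle, cut from the same precursor. MT-RNR2 was at 4053, 3641 and 7164 CPM in DMSO and 3385, 1921 and 13643 CPM with Molidustat at 24 h. The treated libraries included the highest of the 12, and the groups overlapped. At 48 h it was at 4581, 748 and 5571 CPM in DMSO and 4495, 8542 and 5732 CPM with Molidustat. The log2 fold changes were 0.35 ± 0.70 at 24 h and 0.78 ± 0.70 at 48 h (edgeR adjusted p = 0.999 and 0.704). They followed single libraries: the first was -0.91 without Molidustat replicate 3, and the second 0.29 without DMSO replicate 2 and 1.21 without DMSO replicate 3.

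MT-RNR1 was at 588, 736 and 931 CPM in DMSO and 549, 665 and 725 CPM with Molidustat at 24 h, and at 633, 97.6 and 889 CPM in DMSO and 654, 808 and 905 CPM with Molidustat at 48 h. Outside DMSO 48 h replicate 2 its level stayed between 549 and 931 CPM, and the groups overlapped at both times. Its log2 fold changes were -0.22 ± 0.53 and 0.54 ± 0.53, and the latter was 0.04 without that library and 1.08 without DMSO 48 h replicate 3. The former ran from -0.37 without DMSO 24 h replicate 1 to -0.05 without DMSO 24 h replicate 3. The ratio of MT-RNR2 to MT-RNR1 counts ran from 2.89 in Molidustat 24 h replicate 2 to 18.8 in Molidustat 24 h replicate 3.

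**Figure D4:**
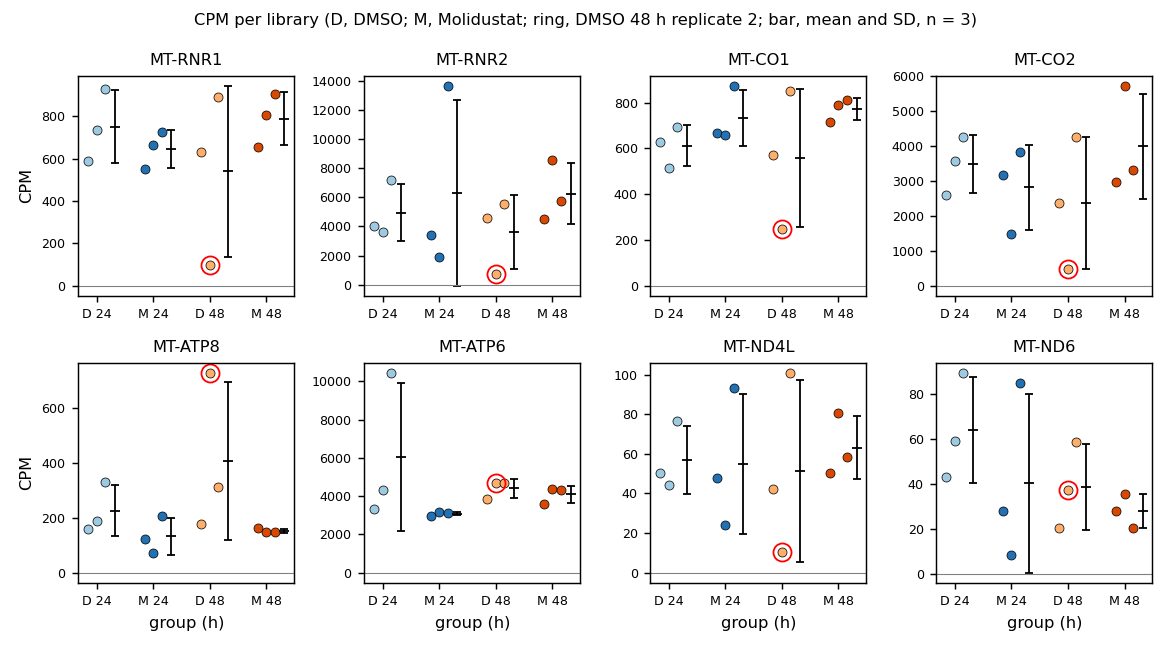
Points give CPM in each library for 8 mitochondrial genes in the 4 groups (D, DMSO; M, Molidustat; 24 h and 48 h), with the mean and SD of 3 beside them; the ring marks DMSO 48 h replicate 2. The ringed library is the lowest of the 12 for MT-RNR1, MT-RNR2, MT-CO1, MT-CO2 and MT-ND4L and the highest for MT-ATP8, at 729 CPM.

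MT-CO1 and MT-CO2 encode the subunits of cytochrome c oxidase that hold its redox metals. MT-CO1 was at 630.1, 514 and 694 CPM in DMSO and 669, 657 and 874 CPM with Molidustat at 24 h, and at 569.9, 248 and 851 CPM against 718, 791 and 809.6 CPM at 48 h. The groups overlapped at both times, and the log2 fold changes, both positive, were 0.26 ± 0.38 and 0.47 ± 0.38. MT-CO2 was at 2604, 3572 and 4259 CPM in DMSO and 3157, 1468 and 3830.3 CPM with Molidustat at 24 h, and at 2353, 485 and 4256 CPM against 2963, 5715 and 3299 CPM at 48 h. These overlapped too, with log2 fold changes of -0.30 ± 0.59 and 0.75 ± 0.59 that differed in sign. Without DMSO 48 h replicate 2 the 48 h values were 0.11 for MT-CO1 and 0.26 for MT-CO2, and without DMSO 48 h replicate 3 they were 0.91 and 1.48. The 24 h value of MT-CO1 was 0.10 without Molidustat replicate 3, and that of MT-CO2 was 0.0084 without Molidustat replicate 2 and -0.60 without Molidustat replicate 3.

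MT-ND6, the complex I subunit encoded on the light strand, had few counts. It was at 42.8, 59.1 and 89.3 CPM in DMSO and 27.9, 8.10 and 84.7 CPM with Molidustat at 24 h, and at 20.4, 37.1 and 58.6 CPM against 27.8, 35.5 and 20.4 CPM at 48 h. Its lowest library, at 8.10 CPM, held 67 counts of it. The groups overlapped at both times, and the log2 fold changes were -0.67 ± 0.61 and -0.48 ± 0.62. The 24 h value ran from -1.87 without Molidustat replicate 3 to -0.17 without Molidustat replicate 2, and the 48 h value was 0.0144 without DMSO replicate 3.

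MT-ND4L, another complex I subunit, was at 50.1, 44.1 and 76.5 CPM in DMSO and 47.9, 23.8 and 93.1 CPM with Molidustat at 24 h, and at 42.1, 10.6 and 101 CPM against 50.1, 80.8 and 58.6 CPM at 48 h. The level of 10.6 CPM in DMSO 48 h replicate 2 rested on 10 counts. The groups overlapped, the log2 fold changes were -0.06 ± 0.58 and 0.25 ± 0.58, and the latter was -0.20 without that library and 1.15 without DMSO 48 h replicate 3. The former ran from -0.69 without Molidustat replicate 3 to 0.31 without Molidustat replicate 2. For the remaining complex I messengers, the log2 fold changes ran from -0.32 (MT-ND2) to -0.08 (MT-ND3) at 24 h and from -0.14 (MT-ND2) to 0.41 (MT-ND5) at 48 h. Without DMSO 48 h replicate 2 the 48 h range was -0.39 (MT-ND2) to 0.18 (MT-ND1), with MT-ND5 at 0.08.

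The 15 genes were also compared between times and between responses. The difference of the Molidustat effect at 48 h from that at 24 h was called for 0 of 15 by edgeR, beside 0% of all genes tested, with 14 of 15 estimates positive (11 of 15 without DMSO 48 h replicate 2), none at an unadjusted p under 0.05 (6.78% of all genes), and a smallest adjusted p of 0.838. From 24 h to 48 h in DMSO, 0 of 15 were called, beside 0.00701% of all genes, none was at an unadjusted p under 0.05 (8.14%), and groups overlapped for all 15 (12% of all genes did not overlap). From 24 h to 48 h with Molidustat, 0 of 15 were called, beside 0%, and none was at an unadjusted p under 0.05 (4.58%). Without DMSO 48 h replicate 2, which is in neither group compared, 2 of 15 were at an unadjusted p under 0.05 and higher at 48 h, MT-CYB and MT-ND4 (4.38%). In this comparison the groups did not overlap for 3 of 15, beside 13.9% of all genes, and all 3 were higher at 48 h. These were MT-ATP6, MT-ND4 and MT-CYB, the last being cytochrome b, the catalytic core of complex III. MT-CYB was at 1882, 890.4 and 1603 CPM at 24 h and 2381, 2492 and 2657 CPM at 48 h, with the 48 h libraries close together above the others. Its log2 fold change was 0.78 ± 0.39 (edgeR adjusted p = 1.0, and 0.319 without DMSO 48 h replicate 2). The comparisons of treatment and of time share libraries and are not separate evidence.

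Nuclear copies of mitochondrial sequence could take reads from the mitochondrial genes or lend them. Of 404 nuclear genes named as copies of these genes, 56 had a count and 6 passed the filter, and together they held as many counts as 2.91% of mitochondrial counts. The 5 with the most counts held 98.6% of those and lay side by side on GRCh38 chromosome 1, from base 629062 to base 634376. MTATP6P1, at chr1:633696-634376, had 38768 counts, or 15.2 for each 100 of MT-ATP6. That proportion was 11.7% to 18.8% in single libraries and did not separate the groups, at 16.7% ± 2.12 in DMSO and 16.5% ± 1.36 with Molidustat at 24 h, and 12.8% ± 1.66 and 15.1% ± 2.87 at 48 h. The 681 bases of the copy differed from those of MT-ATP6 at 10 positions, and none was in the last 30 bases, which are shown here in lower case throughout for comparison with the end of MT-ATP6 given above.
MTATP6P1, chr1:634347-634376, plus strand: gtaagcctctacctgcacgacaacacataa

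Reads from this last stretch fit both places equally well, and between 7.08% and 10.4% of listed reads in a library matched several places and were not assigned to a gene. The estimates for the copy were close to those of MT-ATP6, its log2 fold change being -0.97 ± 0.40 after 24 h and 0.12 ± 0.39 after 48 h (edgeR adjusted p = 0.870 and 0.937). MTND1P23, at chr1:629062-629433, had 4181 counts, or 24.2% to 43.5% of those of MT-ND1 in single libraries, the highest share being in DMSO 48 h replicate 2. The share overlapped between treatments at both times, at 26.9% ± 2.37 in DMSO and 29.0% ± 4.43 with Molidustat at 24 h, and 38.0% ± 5.85 and 33.4% ± 0.975 at 48 h. In DMSO it did not overlap between times, at 24.2%, 27.8% and 28.7% at 24 h and 38.6%, 43.5% and 31.9% at 48 h. With Molidustat it did overlap, at 27.1%, 34.0% and 25.8% against 32.9%, 32.9% and 34.6%. Groups of 3 against 3 are free of overlap in 10% of cases by chance. The 365 bases aligned were 98.1% identical to MT-ND1. MTND2P28, MTCO1P12 and MTCO2P12 were 98.2% to 98.7% identical to their genes and had 2030, 551 and 482 counts, at most 2.99% of the counterpart in any library. None of the 6 copies tested was called at either time by edgeR. The values of MT-ATP6 and MT-ND1 are uncertain as far as reads were split between gene and copy, which was not tested.

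Nuclear genes that express and maintain the mitochondrial genome were examined in 5 lists, of which 56 of 57 genes passed the filter (PERM1, with 1 count, did not). In edgeR, 0 of 56 were called at 24 h and 0 of 56 at 48 h, beside 0.231% of all genes tested at each time. At an unadjusted p under 0.05, 2 were higher and 3 lower at 24 h (3.73% and 1.52% of all genes tested), and 0 were higher and 8 lower at 48 h (4.53% and 8.81%). If DMSO 48 h replicate 2 is omitted, the counts at 24 h were 2 higher and 5 lower (6.2% and 2.85%), and those at 48 h were 1 higher (LONP1) and 6 lower (3.68% and 2.92%). Estimates were negative for 39 of 56 at 24 h (median -0.28) and 42 of 56 at 48 h (median -0.35, and -0.44 without DMSO 48 h replicate 2). The genes named below were mostly picked by smallest p, so that a lack of overlap in them follows in part from that choice. Over all genes tested, groups did not overlap for 12.3% at 24 h and 18% at 48 h.

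ELAC2, the enzyme that trims the 3′ end of transfer RNAs when they are cut from the precursor, was at 124, 115 and 127 CPM in DMSO and 64.0, 53.0 and 62.3 CPM with Molidustat at 48 h. The groups were far apart relative to their spread, and the doubtful control library lay with the other controls. The log2 fold change was -1.03 ± 0.29, with an adjusted p of 0.193 in edgeR, and ELAC2 was called lower by DESeq2 (adjusted p = 0.0172) and by limma-voom (adjusted p = 0.0144), and by both without that library (adjusted p = 0.0247 and 0.0103). At 24 h it was at 124, 153 and 109.9 CPM in DMSO and 116, 82.9 and 71.8 CPM with Molidustat, which overlapped, with a log2 fold change of -0.52 ± 0.29 (edgeR adjusted p = 0.999). Among the 21 genes of RNA processing and modification, 14 were negative at 48 h, with a median of -0.22 (15 and -0.18 without that library). FASTKD2, which binds mitochondrial RNA and serves ribosome assembly, was at 76.6, 48.4 and 54.5 CPM in DMSO and 38.2, 33.1 and 33.3 CPM with Molidustat at 24 h, without overlap (log2 fold change -0.78 ± 0.31, edgeR adjusted p = 0.819, and 0.376 without DMSO 48 h replicate 2). PUS1, a pseudouridine synthase of transfer RNA, stood at -1.14 on the log2 scale at 48 h (edgeR adjusted p = 0.308), and at -0.95 without DMSO 48 h replicate 2 (0.794).

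In the list of RNA stability and polyadenylation, the large values came from 1 library. LRPPRC, which binds and stabilises mitochondrial messengers, was at 169, 2745 and 133 CPM in DMSO and 140.1, 62.4 and 127 CPM with Molidustat at 48 h. Only DMSO replicate 2 stood out, at 2745 CPM against at most 249 CPM in the 11 others. MTPAP, the poly(A) polymerase of mitochondria, was at 311, 1664 and 299 CPM in DMSO and 242, 209 and 128 CPM with Molidustat at 48 h, with the same library on top. The log2 fold changes of -3.20 for LRPPRC and -1.97 for MTPAP (edgeR adjusted p = 0.203 and 0.193) were -0.47 and -0.67 without it (adjusted p = 0.978 and 0.672). LIG3, the DNA ligase that also serves mitochondria, behaved likewise, with 335 CPM in that library, at most 103 CPM elsewhere, and a log2 fold change of -2.29 that was -0.54 without it.

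Of the 8 genes of mitochondrial transcription, none reached an unadjusted p under 0.05 at either time. Their median was -0.42 at 24 h, with 7 negative, and -0.23 at 48 h, with 5 negative (8 without DMSO 48 h replicate 2). Of the 13 genes of replication and the nucleoid, LONP1, a matrix protease, was at 32, 24.9 and 29.6 CPM in DMSO and 68.2, 64.3 and 39.7 CPM with Molidustat at 24 h. The groups did not overlap, with a log2 fold change of 0.99 ± 0.36 (edgeR adjusted p = 0.681, and 0.151 without DMSO 48 h replicate 2). At 48 h it was at 33.9, 75.3 and 35.5 CPM in DMSO and 76.1, 68.8 and 61.8 CPM with Molidustat, with DMSO replicate 2 within the treated range, and the log2 fold change of 0.55 was 0.97 without it. In this list 8 of 13 were negative at 24 h (median -0.28) and 10 of 13 at 48 h (median -0.45, and -0.35 without that library), and POLG2, the accessory subunit of the mitochondrial DNA polymerase, stood at -1.62 on the log2 scale at 48 h (-0.95 without DMSO 48 h replicate 2).

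Of the 7 tested regulators of mitochondrial biogenesis, 4 were negative and 3 positive at 24 h, with a median of -0.07. All were negative at 48 h, with a median of -0.73, and 6 without DMSO 48 h replicate 2, where PPARGC1A was at 1.33. PPRC1, a coactivator of the PGC-1 family, was at 18.5, 13.8 and 24.0 CPM in DMSO and 9.40, 5.98 and 6.18 CPM with Molidustat at 48 h. The groups did not overlap (log2 fold change -1.40 ± 0.46, edgeR adjusted p = 0.223, DESeq2 adjusted p = 0.0567, limma-voom adjusted p = 0.0232). The change was -1.57 without DMSO 48 h replicate 2 (edgeR adjusted p = 0.310). ESRRA, a nuclear receptor that drives genes of oxidative metabolism, was at 30.4, 34.2 and 17.5 CPM in DMSO and 11.8, 9.55 and 10.7 CPM with Molidustat at 24 h, again without overlap (log2 fold change -1.35 ± 0.54, edgeR adjusted p = 0.823, and 0.130 without DMSO 48 h replicate 2). The largest positive estimate of the 56 was for PPARGC1A at 24 h (3.37 ± 1.73), a gene with 79 counts in all 12 libraries.

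**Figure D5:**
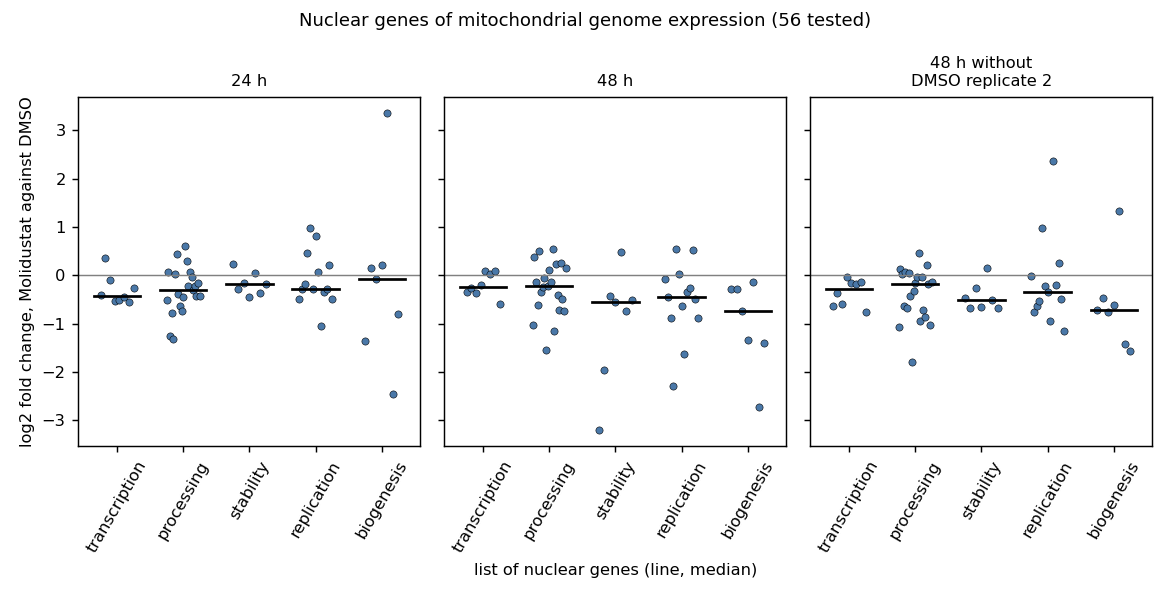
Points give the log2 fold change of Molidustat against DMSO for 56 nuclear genes in 5 lists at 24 h, at 48 h and at 48 h without DMSO replicate 2, with lines at the median of each list. Most points lie below 0, and the 2 lowest points of the stability list at 48 h, LRPPRC (-3.20) and MTPAP (-1.97), are at -0.47 and -0.67 without that library.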

How the data were processed

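The study isolated total RNA from 3 biological replicates per group, prepared 3′ libraries with the QIAseq UPX 3′ Transcriptome Kit and sequenced them as paired-end reads. Per the labels' processing notes, the tools were bcl2fastq 2.17.1.14, cutadapt 1.9.1, STAR 2.7.9a, HTSeq 0.11.2 and DESeq2 1.26.0, on GRCh38. The deposited files give raw counts per Ensembl gene for each library, which the authors made with HTSeq. The study names HTSeq as its tool for counting tags, and whether molecular tags were used in this counting is not given in the sources used here. The 5 summary lines of each file (such as reads on no gene or on several places) were kept out of library sizes and used as quality measures.

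Symbols, coordinates and lengths came from GENCODE release 44, in which 60437 of 60666 listed genes were named, and sequences from the GRCh38 genome. Genes passed the filter of edgeR 4.0.16 (filterByExpr), libraries were scaled by TMM, and all 12 libraries entered 1 quasi-likelihood fit (R 4.3.3). CPM are scaled by TMM. DESeq2 1.42.0 and limma 3.58.1 (voom with sample quality weights) were alternatives, as were other scalings, filters and left-out libraries. Fits were tested on simulated data. Beyond all 37 members, genes were named by rule: both ribosomal RNAs, the light-strand messenger, overlapping frames and the 6 smallest p-values, and of the nuclear lists the 10 genes of smallest p (all under 0.05) and the gene with the largest change in each direction. The lowest counts of DMSO 48 h replicate 2 limit its precision. Members and lists were chosen with earlier results of these data known. Replicate libraries of a group differed by more than sampling noise.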

Additional observations from a re-analysis of the deposited data

How the results depend on the processing

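Over 24 or 25 alternatives for each comparison, the count of called mitochondrial genes was 0 except at 48 h with no filter on low counts, where it was 1: MT-ATP8, with a log2 fold change of -1.37 and an edgeR adjusted p of 0.0310. That fit covered 28430 genes and called 610 lower. It had 227440 degrees of freedom for MT-ATP8, against 15.6 in the fit reported. Its p-values thus rest on a spread pooled over genes and are not comparable with the others. Across its alternatives the 48 h value of MT-ATP8 ran from -1.74 to -0.66, with adjusted p from 0.0310 to 0.816. Of 384 values for single genes under the alternatives, 371 kept direction and call. Those that reversed were close to 0 or rested on 1 library. At 24 h MT-RNR2 ran from -0.91 (without Molidustat replicate 3) to 0.79 with 1 library left out, MT-CO2 from -0.60 to 0.0084 (without Molidustat replicate 2), and MT-ND4L from -0.69 to 0.31 (positive without DMSO replicate 3, Molidustat replicate 1 or Molidustat replicate 2), while MT-ND4L was 0.0493 with libraries thinned to the smallest total. At 48 h MT-ND6 ran from -0.81 to 0.0144 (without DMSO replicate 3) and MT-ND4L from -0.20 (without DMSO replicate 2) to 1.15, MT-ATP6 was 0.0764 on total counts, and MT-ND4L was -0.15 by limma-voom. With DMSO 48 h replicate 2 left out too, a setting chosen after seeing the data, MT-ND4L was -0.15 by DESeq2 and -0.17 by limma-voom. The cause was not tested.

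The nuclear lists had 0 calls in the fit reported, 2 by DESeq2 (ELAC2 and LIG3), 2 by limma-voom (ELAC2 and PPRC1), and 3 with no filter on low counts (LIG3, LRPPRC and MTPAP), all lower at 48 h. With DMSO 48 h replicate 2 left out too, DESeq2 gave 2 (ELAC2 at 48 h and ESRRA at 24 h) and limma-voom 2 (ELAC2 and PPRC1 at 48 h), beside 239 and 91 of all genes at 24 h and 175 and 221 at 48 h. Leaving out 1 library at a time in edgeR gave 0 to 3, with 3 without DMSO 48 h replicate 1 (LIG3, LRPPRC and MTPAP) and 2 without DMSO 48 h replicate 3 (LRPPRC and MTPAP). Calls over all genes at 48 h rose as well in these settings, from 33 to 327 and 198. They were 350 by DESeq2, 278 by limma-voom and 764 with no filter on low counts, the fit whose spread was pooled over genes.

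The difference in the mitochondrial share, Molidustat minus DMSO, was -0.545 percentage points at 24 h and ran from -1.10 (without Molidustat replicate 3) to -0.0284 (without Molidustat replicate 2), and was 0.698 at 48 h and ran from -0.0249 (without DMSO replicate 2) to 1.36. At 24 h it was 0.114 for ribosomal RNAs alone. Same-numbered replicates correlated at -0.0902 to 0.118 in their deviations from group means, with 2 of 12 over 0.1. A library correlated best with its own number in 7 of 24 checks. No pairing by number was seen in these values, which cannot show that none was made. With the replicate block, mitochondrial calls were 0 in all 5 comparisons, and calls over all genes were 30 at 24 h and 22 at 48 h, against 33 and 33 without it. DESeq2 called 141 and 350 of all genes and limma-voom 64 and 278. The difference between times could not be had from fits of each time alone. Counts were fewest for MT-ND3 (1834 in all), MT-ND6 (2433) and MT-ND4L (3551) among the tested genes, and no transfer RNA passed the filter on low counts.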
